A study of Mus musculus with 6 samples.

Results

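Genes of the splicing machinery and of the proteins that coat nascent transcripts were examined in newborn mouse epidermis. Members were all genes whose symbols start with Hnrnp, Srsf, Sf3a, Sf3b, Snrp, Prpf, U2af or Ptbp, or with Rbm followed by a digit, plus Tra2a and Tra2b. This rule uses names only and found 106 of the 12894 genes in the deposited table, 104 of them protein coding and 2 processed pseudogenes (Snrpert and Rbm3-ps). By family they were 20 hnRNP genes, 12 SR genes, 3 of U2AF, 3 of SF3a, 6 of SF3b, 13 Sm and snRNP genes, 13 PRPF genes, 3 PTBP genes and 33 numbered RBM genes.

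The 6 libraries came from 3 animals labelled Hnrnpu knockout, called knockout 1 to 3, and from 3 controls, called control 1 to 3, each animal with a number of its own. All animals were C57BL/6 mice at postnatal day 0, and the epidermis was separated from the dermis before RNA extraction for bulk RNA sequencing. The labels give deletion by loxP-Cre recombination, and the promoter driving Cre is not given in the sources used here. The genotype label was wild type for control 1 and "Heterogenous" for controls 2 and 3, read here as heterozygous for Hnrnpu. Each value is a normalized count, the reads assigned to a gene after the authors' scaling between libraries. By the size of its smallest steps, an estimated 8760000, 6450000 and 7630000 reads were assigned in knockout 1 to 3, and 9070000, 8280000 and 9110000 in control 1 to 3.

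An intron is removed by the spliceosome, which is built from small nuclear ribonucleoproteins (snRNPs). U1 binds the start of the intron, U2AF and the U2 snRNP with its SF3a and SF3b parts bind the branch point and the end, and the U4/U6.U5 tri-snRNP then brings the catalytic core. SR proteins bind exons and mostly favour their inclusion, whereas hnRNP and PTB proteins often oppose it. In epidermis, splicing choices set protein isoforms that differ between epithelial and mesenchymal cells.

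Hnrnpu itself (ENSMUSG00000039630, chromosome 1), which encodes the nuclear scaffold attachment factor A, had 1565, 1342 and 1036 normalized counts in knockout 1 to 3, against 1450, 1318 and 1160 in control 1 to 3. The groups overlapped. The log2 difference was −0.01 ± 0.20 (SE, n = 3 each, limma adjusted p = 0.976), an exact permutation test over libraries, two-sided, gave p = 1 (smallest possible 0.1), and the 95% interval of the ratio ran from 72.5 to 136.2% of the control level. The count sums reads over all exons, and the deleted part is not given in the sources used here, so it does not check the genotype. All directions below therefore rest on the labels.

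Xist, which is transcribed from the silenced X chromosome of females, had 1.87, 5656 and 4758 normalized counts in knockout 1 to 3, against 0, 0.885 and 3.27 in control 1 to 3. Knockout 2 and 3 thus stood apart from knockout 1 and the controls, and are read here as female and the others as male. Of 6 tested genes on chromosome Y, 3 were lower and 0 higher. Sex was therefore not balanced between the groups, and in knockout 2 and 3 it cannot be told apart from the label. Knockout 1 alone against the controls, given below, compares libraries alike in Xist. Keratinocyte markers were all in the table (10 of 10) and summed to 692929, 807397 and 938231 normalized counts in knockout 1 to 3, against 878382, 939257 and 951527 in control 1 to 3. Among them only Krt14, a basal keratin, passed, with 59690, 115300 and 21770 normalized counts in knockout 1 to 3 against 10310, 5712 and 3208 in control 1 to 3 (log2 difference 3.21 ± 0.61, limma adjusted p = 0.00547). The basal markers Krt5, Itga6 and Trp63 differed by −0.64, −1.03 and −0.59 and did not pass. All 7 melanocyte markers were higher, with sums of 3679, 4682 and 2829 in knockout 1 to 3 against 585.9, 478.2 and 412.0 in control 1 to 3. Of 6 fibroblast markers, 4 were in the table and 3, all collagens, were higher. Dcn differed by −0.75 ± 0.58, with overlapping groups, and did not pass (limma adjusted p = 0.341). Sums of these markers were 440.2 to 515.8 in the libraries labelled knockout and 136.5 to 391.1 in the controls. Dcn alone made up 366.2, 160.3 and 87.5 in control 1 to 3. Sums of the 6 leukocyte markers in the table overlapped (133.8 to 627.7 in the libraries labelled knockout, 279.0 to 531.8 in the controls), with Lyz2 higher and Cd3e and Csf1r lower (limma adjusted p = 0.0429, 0.0128 and 0.0439). Of this list Cd207 was not among the table's genes, and 0 of 5 skeletal muscle markers were. Of 5 endothelial markers 1 was in the table, of 3 Schwann markers 2 (sums of 69.9 to 92.5 in the libraries labelled knockout, 8.9 to 17.4 in the controls) and of 4 erythroid markers 2, with knockout 2 highest at 566.7. The part of these cells in the results below was not tested, and in bulk RNA fewer cells of a type and less RNA per cell cannot be told apart.

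As a group the splicing genes differed little between the libraries labelled knockout and the controls, and a minority changed in either direction. By the test, 12 members were higher and 9 lower at a limma adjusted p of 0.05. That is 19.8% of the 106 members, against 33.6% of all 12872 tested genes. The 12 higher members were 11.3% of the members, against 17.7% of all tested genes, and the 9 lower ones 8.49%, against 15.9%. At least 2-fold changes were found for 3 higher and 4 lower members, or 6.6% in all, against 23.8% of all tested genes. Among the 8114 tested genes whose mean level lies between the 10th and 90th percentile of the members' mean levels, 35.0% passed.

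**Figure D1:**
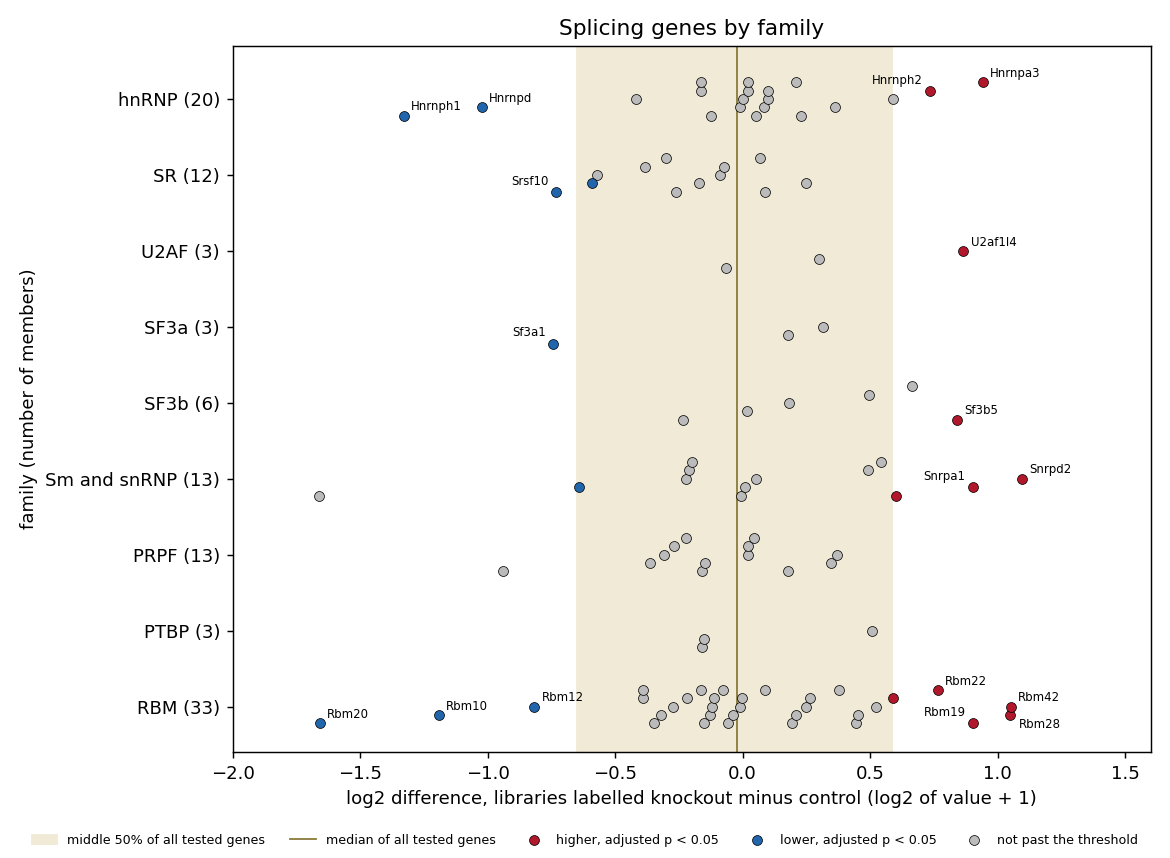
Log2 difference (libraries labelled knockout minus control, on log2 of value + 1) of each of the 106 members, by family, with members higher in red, lower in blue and not past the threshold in grey. The shaded band is the middle 50% of all tested genes, from −0.65 to 0.58, and most members lie inside it. Hnrnph1, Hnrnpd, Rbm10, Rbm20 and the uncalled Snrpf lie beyond −1, and Snrpd2, Rbm28 and Rbm42 beyond 1.

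The median log2 difference of the members was −0.0004, against −0.022 over all tested genes, with 53 members above 0 and 53 below. The median size of the difference, with its sign dropped, was 0.247 for members and 0.617 for all tested genes. For 72.6% of the members (77 genes) the size was below 0.5, against 42.2% of all tested genes. A log2 size of 1 or more was reached by 7.55% of the members and by 31.1% of all tested genes. Among the 8114 tested genes in the members' range of mean level, the median size was 0.529. Of these, 47.9% lay below 0.5 and 24.1% reached 1 or more. The members' differences ran from −1.66 to 1.10. Of the 85 members not past the threshold, 72 had a 95% interval wholly inside −1 to 1, so that a change of 2-fold or more lay outside their intervals.

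**Figure D2:**
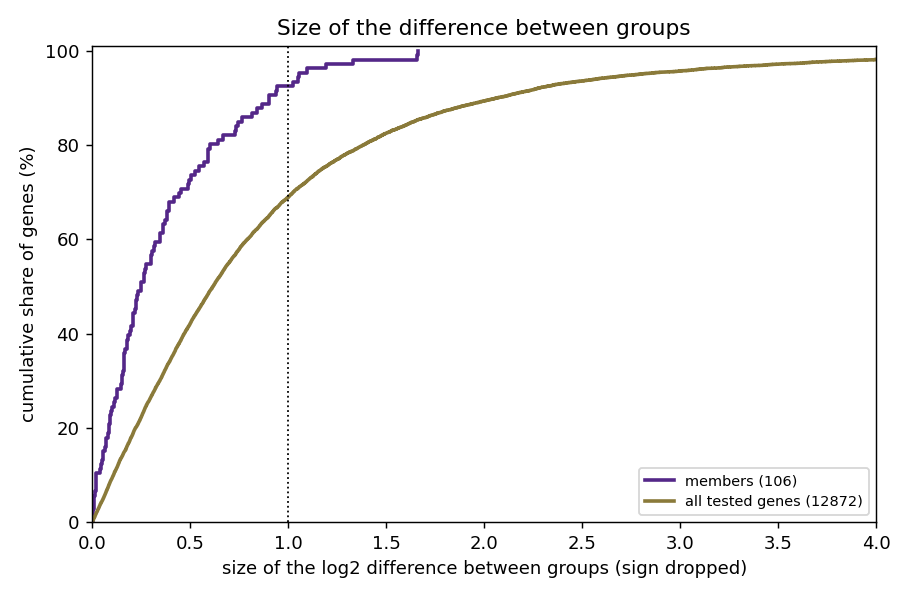
Cumulative share of genes (y axis, %) whose log2 difference between groups, sign dropped, is no larger than the value on the x axis, for the 106 members and for all 12872 tested genes. The members' curve lies to the left, and at the dotted line, a log2 size of 1, 7.55% of the members and 31.1% of all tested genes remain to the right.

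The values of the 2 groups did not overlap for 39 members (36.8%), 23 higher and 16 lower, against 50.8% of all tested genes. All 21 called members were among these 39.

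Members spanned a wide range of levels. Per kilobase of exon, control levels ran from 4.56 normalized counts for Rbm20 to 707.5 for Ptbp3, with a median of 54.2. Ptbp3 stood highest in both groups, at 1014 per kilobase in the libraries labelled knockout and 707.5 in the controls. Hnrnpf, a binder of G-rich RNA, came next with 696.1 per kilobase in the libraries labelled knockout and 689.3 in the controls. Summed over the 106 members, knockout 1 to 3 had 58761, 64065 and 54006 normalized counts, against 56949, 57609 and 53827 in control 1 to 3. As a share of all normalized counts these sums were 0.717, 0.583 and 0.638% in knockout 1 to 3, against 0.831, 0.786 and 0.722% in control 1 to 3.

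The sums overlapped between groups, while each share was lower in the libraries labelled knockout than in any control. The totals behind these shares were 8191409, 10987666 and 8469679 in knockout 1 to 3, against 6850663, 7328810 and 7453638 in control 1 to 3, whereas the library medians lay between 130.8 and 138.2. Scaling all libraries to equal totals moved the median of all tested genes to −0.359 and that of the members to −0.339, and the split of member calls to 3 higher and 18 lower, where 11.2% of all tested genes were higher and 23.8% lower. The 9 lower calls and those of Hnrnpa3, Rbm42 and Snrpd2 held on both scales. The other 9 higher calls below were made on the deposited scale and not on equal totals, where their log2 differences stayed between 0.25 and 0.71.

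**Figure D3:**
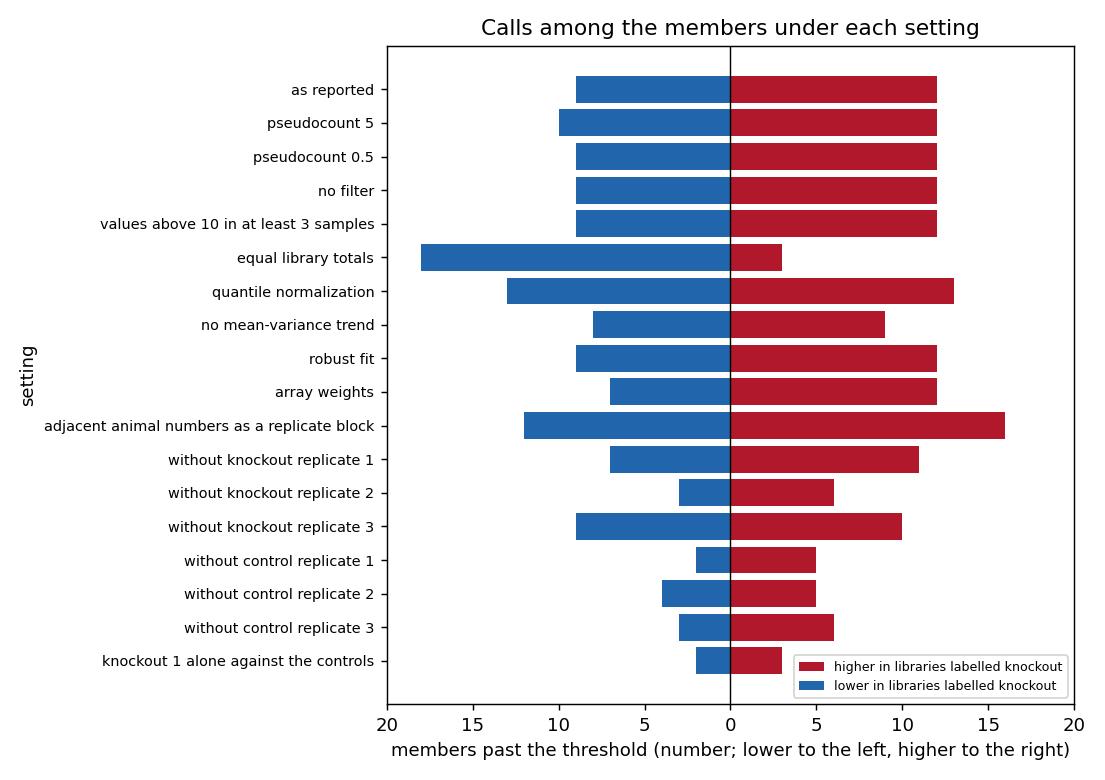
Number of members higher (red) and lower (blue) at an adjusted p of 0.05 under the deposited scaling and under each alternative. The deposited scaling gives 12 and 9, equal library totals 3 and 18, and the pairing of animals with adjacent numbers as a block 16 and 12. The bars of knockout 1 alone rest on a single library labelled knockout.

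Of the 20 hnRNP genes, 2 rose and 2 fell, with a family median of 0.04, where 17.7% of all tested genes were higher and 15.9% lower. The H group changed in opposite directions. Hnrnph1 and Hnrnph2 encode close relatives that bind runs of G and regulate exon choice and polyadenylation. Their coding sequences are alike, which is why the starts of both are shown, as open reading frames of the GENCODE M21 transcripts (GRCm38), coding bases 1 to 150, with the 25 differing bases in capitals.
Hnrnph1: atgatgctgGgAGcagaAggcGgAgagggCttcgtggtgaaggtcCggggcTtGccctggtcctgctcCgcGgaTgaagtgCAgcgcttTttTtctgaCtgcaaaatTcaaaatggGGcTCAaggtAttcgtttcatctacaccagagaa
Hnrnph2: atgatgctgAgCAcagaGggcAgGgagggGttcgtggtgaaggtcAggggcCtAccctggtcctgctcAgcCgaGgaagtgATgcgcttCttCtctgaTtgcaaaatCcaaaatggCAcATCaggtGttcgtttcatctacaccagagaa
Over their 1350 coding bases, 1160 (85.9%) were identical. Hnrnph1 (ENSMUSG00000007850, chromosome 11) had 333, 257 and 202 normalized counts in knockout 1 to 3, against 774, 630.5 and 564 in control 1 to 3. Every library labelled knockout lay below every control. Its log2 difference was −1.33 ± 0.23 (SE, n = 3 each, limma adjusted p = 0.00388). Hnrnph2 (ENSMUSG00000045427, chromosome X) had 537, 817 and 612 normalized counts in knockout 1 to 3, against 391, 428 and 347 in control 1 to 3, all higher than the controls, with knockout 2 highest. Its log2 difference was 0.73 ± 0.21 (limma adjusted p = 0.0262). This X-linked gene differed by 0.47 with knockout 1 alone, past no threshold (limma adjusted p = 0.181), and its call was also lost without knockout 2 or control 1, 2 or 3 (limma adjusted p = 0.0593, 0.0752, 0.0574 and 0.0944). The ratio of Hnrnph2 to Hnrnph1 does not depend on how a library is scaled. It was 1.62, 3.18 and 3.03 in knockout 1 to 3, against 0.505, 0.678 and 0.616 in control 1 to 3, so that Hnrnph2 had the larger count in the libraries labelled knockout and Hnrnph1 in the controls. Stretches of 50 bases that also occur in another gene made up 0.1% of Hnrnph1 transcripts and 15.9% of Hnrnph2 transcripts, those of Hnrnph2 mostly in a pseudogene. The remaining relatives, Hnrnph3 and Hnrnpf, differed by 0.08 ± 0.25 and 0.00 ± 0.17 and did not pass (limma adjusted p = 0.814 and 0.989).

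Hnrnpa3, a core A/B-group protein of the particles on nascent transcripts, had 1654, 1904 and 1465 normalized counts in knockout 1 to 3, against 910, 977 and 728 in control 1 to 3. It rose by 0.94 ± 0.19 log2 units (limma adjusted p = 0.00662), with no overlap between groups. Its relatives Hnrnpa1 and Hnrnpa2b1, which bind similar RNA, differed by −0.16 ± 0.20 and 0.02 ± 0.18, and neither passed (limma adjusted p = 0.546 and 0.941). The ratio of Hnrnpa3 to Hnrnpa1 was 2.52, 2.68 and 2.47 in knockout 1 to 3, against 1.02, 1.34 and 1.22 in control 1 to 3. Of the 50-base stretches of Hnrnpa3 transcripts, 27.1% also occur in another gene, and of those of Hnrnpa1 28.2%, mainly Gm5641 for Hnrnpa3 and Gm10052 for Hnrnpa1. Hnrnpd, the AU-rich element binding protein AUF1 that controls mRNA decay, had 211, 208 and 165 normalized counts in knockout 1 to 3, against 424, 417 and 346.5 in control 1 to 3. It fell by 1.02 ± 0.19 log2 units (limma adjusted p = 0.00543), and knockout 1 to 3 lay well below each control.

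**Figure D4:**
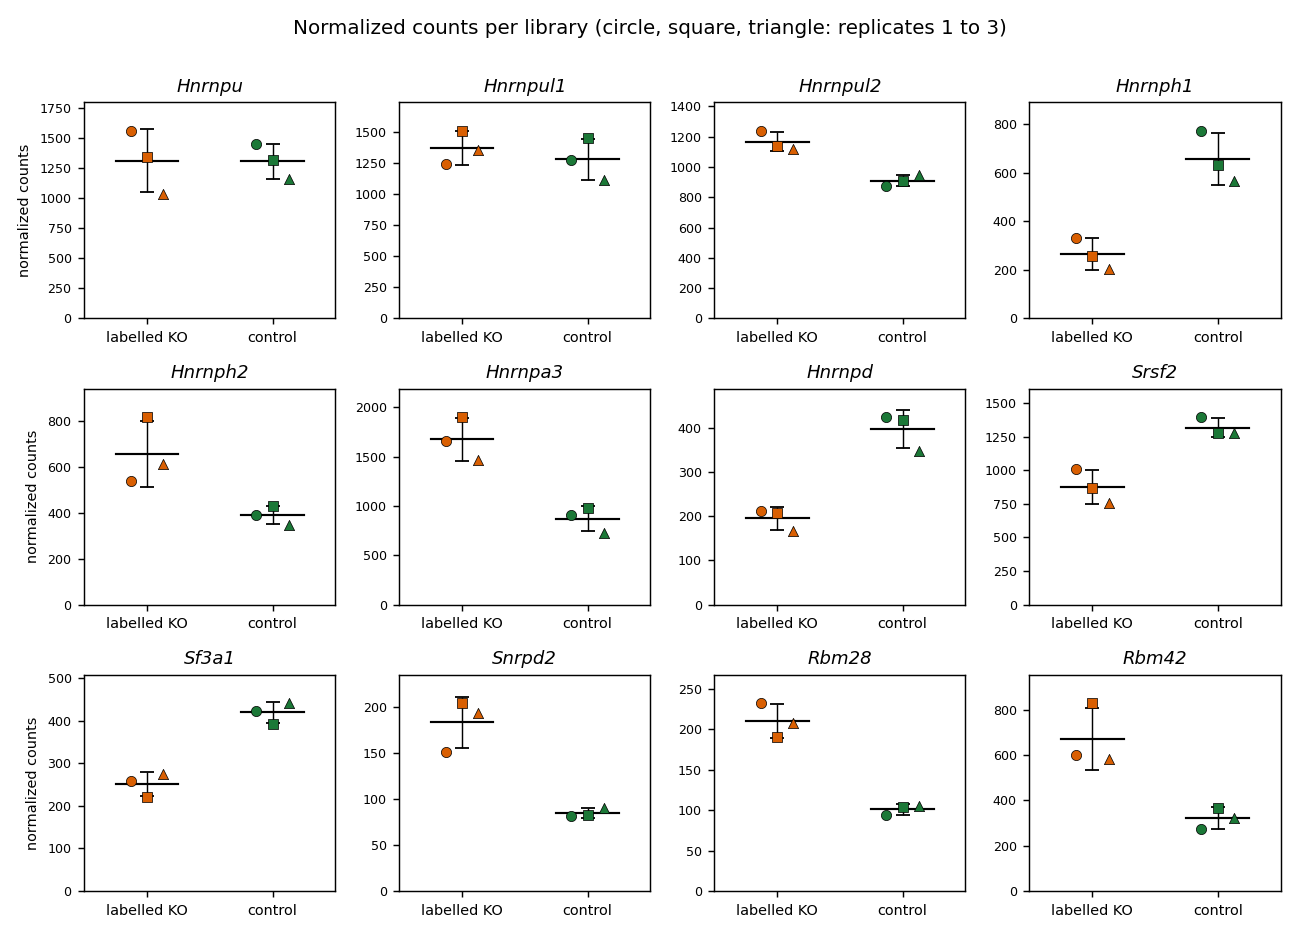
Normalized counts (linear axes from 0) of 12 members in each library, with the libraries labelled knockout left of the controls, a bar at each group mean and whiskers of 1 SD (n = 3). Hnrnpu and Hnrnpul1 overlap between groups, while Hnrnph1 and Hnrnpd lie below the controls and Hnrnpa3 and Snrpd2 above them in all 3 libraries labelled knockout.

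The paralogs of Hnrnpu did not pass the threshold. Hnrnpul1, which binds RNA and takes part in the DNA damage response, had 1240, 1512 and 1357 normalized counts in knockout 1 to 3, against 1272, 1451 and 1117 in control 1 to 3, a log2 difference of 0.10 ± 0.17 (limma adjusted p = 0.676). Hnrnpul2 had 1241, 1142 and 1122 normalized counts in knockout 1 to 3, against 872, 908 and 947 in control 1 to 3. Its groups did not overlap, but the difference of 0.36 ± 0.15 missed the threshold (limma adjusted p = 0.0995). The ratio of Hnrnpul2 to Hnrnpu overlapped between groups, at 0.793, 0.851 and 1.08 in knockout 1 to 3 and 0.601, 0.689 and 0.816 in control 1 to 3. Hnrnpll, a regulator of exon choice known from T cells, differed by 0.59 ± 0.21 and missed the threshold narrowly (limma adjusted p = 0.0572). It passed when animals of adjacent number were paired as a block. Among abundant members Hnrnpk, Hnrnpl, Hnrnpab and Hnrnpa0 differed by 0.21, 0.02, 0.10 and 0.23, none past the threshold.

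Among the 12 SR genes, 2 fell and none rose, where 15.9% of all tested genes were lower and 17.7% higher. The count of 0 higher members includes no gene at an unadjusted limma p under 0.05. Of the 12, 9 had log2 differences below 0, with a family median of −0.22. Srsf2 (SC35), which binds exonic enhancers and marks nuclear speckles, had 1010, 865 and 758 normalized counts in knockout 1 to 3, against 1397, 1273 and 1275 in control 1 to 3. It fell by 0.59 ± 0.17 log2 units (limma adjusted p = 0.0298), and the groups were well apart. Srsf10, a splicing repressor when dephosphorylated, had 289.5, 153 and 213 normalized counts in knockout 1 to 3, against 361, 352.5 and 341 in control 1 to 3. It fell by 0.73 ± 0.25 (limma adjusted p = 0.0491), with knockout 2 lowest. Neither call was stable: without 1 library the limma adjusted p of Srsf2 passed only without knockout 1 and lay between 0.0528 and 0.104 without any other, and that of Srsf10 passed only without knockout 1 and lay between 0.0765 and 0.126 without any other. Srsf6 differed by −0.57 ± 0.26 and did not pass (limma adjusted p = 0.116), though it did in the block of adjacent animals (0.0414).

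Summed over the 12 SR genes, knockout 1 to 3 had 7812, 7956 and 6692 normalized counts, against 8826, 8787 and 8944 in control 1 to 3, so that every library labelled knockout lay below every control. How often sums over 12 other genes separate in this way was not tested. Taken singly, 6 of the 12 had groups that did not overlap, in either direction, against 50.8% of all tested genes. On equal totals, all 12 lay below 0 with a family median of −0.558, and 6 passed as lower. On that scale the median of all tested genes was −0.359, and 23.8% of them passed as lower. The most abundant SR gene by count, Srsf5, had 1567, 2031 and 1020 normalized counts in knockout 1 to 3, against 1365, 1817 and 1573 in control 1 to 3, with overlapping groups (−0.09 ± 0.26). The SR-like pair Tra2a and Tra2b, which bind purine-rich exonic enhancers, differed by 0.09 ± 0.21 and 0.25 ± 0.16 (limma adjusted p = 0.763 and 0.261).

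The proteins of the U1 and U2 snRNPs and of the Sm ring gave 3 higher and 1 lower of 13, with a median of 0.01. Over all tested genes, 17.7% were higher and 15.9% lower. Snrpd2, a subunit of the Sm ring that encircles the RNAs of the U1, U2, U4 and U5 particles, had 152, 204.5 and 194 normalized counts in knockout 1 to 3, against 81.5, 82.1 and 90.5 in control 1 to 3. It rose by 1.10 ± 0.21 log2 units (limma adjusted p = 0.00608). Snrpb, which encodes another subunit of the same ring, went the opposite way. It had 189, 175 and 208.5 normalized counts in knockout 1 to 3, against 328, 290 and 278 in control 1 to 3, and fell by 0.64 ± 0.18 (limma adjusted p = 0.0274). The call of Snrpb held without knockout 3, while its limma adjusted p lay between 0.055 and 0.105 without any other single library. The ratio of Snrpd2 to Snrpb was 0.803, 1.17 and 0.931 in knockout 1 to 3, against 0.249, 0.283 and 0.326 in control 1 to 3.

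The other ring subunits did not pass: Snrpd1, Snrpd3, Snrpe and Snrpg differed by −0.22, −0.21, −0.01 and 0.01. Snrpf was low, with 7.87, 3.40 and 14.5 normalized counts in knockout 1 to 3, against 27.8, 20.6 and 29.9 in control 1 to 3. Its difference of −1.66 ± 0.58 missed the threshold (limma adjusted p = 0.0556) and passed in the block of adjacent animals (0.0316). Exons of Ccdc38 on the opposite strand overlap 65.9% of its exon bases, and those of another gene there, 4933408J17Rik, overlap 168 bases. Whether the counting used strand is not given in the sources used here.

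Snrpa1, a protein specific to the U2 snRNP, had 148, 151 and 146 normalized counts in knockout 1 to 3, against 89.9, 75.3 and 72.8 in control 1 to 3. It rose by 0.90 ± 0.21 log2 units (limma adjusted p = 0.0119), with very even values in the libraries labelled knockout. Snrpa, a protein specific to the U1 snRNP, had 309, 395 and 395 normalized counts in knockout 1 to 3, against 228, 239 and 253 in control 1 to 3, a rise of 0.60 ± 0.18 (limma adjusted p = 0.0363). Its call held without knockout 1 but not without any other single library (limma adjusted p from 0.076 to 0.114). The U1 protein Snrpc and the U2 protein Snrpb2 differed by 0.49 ± 0.22 and 0.54 ± 0.28, without passing the test (limma adjusted p = 0.119 and 0.161).

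Of the factors that recognise the end of the intron and the branch point, the U2AF, SF3a and SF3b members, 2 rose and 1 fell of 12. Over all tested genes, 17.7% were higher and 15.9% lower. U2af1l4, a relative of the small U2AF subunit, had 93.0, 112.5 and 81.4 normalized counts in knockout 1 to 3, against 39.8, 66.6 and 51.6 in control 1 to 3. It rose by 0.87 ± 0.28 log2 units (limma adjusted p = 0.0429), but the call held without knockout 3 only, with a limma adjusted p of 0.052 to 0.14 without any other single library. Of its transcript sequence 42.1% is shared with other genes, mainly the readthrough gene Gm49396 on the same strand. The main subunits U2af1 and U2af2 differed by −0.07 ± 0.27 and 0.30 ± 0.15 and did not pass (limma adjusted p = 0.863 and 0.163).

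Sf3a1, the scaffold of the SF3a complex in the U2 snRNP, had 258, 219.5 and 275 normalized counts in knockout 1 to 3, against 424, 393 and 441 in control 1 to 3. It fell by 0.74 ± 0.18 log2 units (limma adjusted p = 0.0144), a call lost without control 1 or 3 (0.0543 and 0.0595). Its partners Sf3a2 and Sf3a3 differed by 0.31 ± 0.20 and 0.18 ± 0.22 and did not pass (limma adjusted p = 0.241 and 0.544). Sf3b5, a small SF3b subunit, had 164.5, 293 and 218 normalized counts in knockout 1 to 3, against 122, 110 and 135 in control 1 to 3. It rose by 0.84 ± 0.25 (limma adjusted p = 0.0321), with knockout 2 highest, and the call held without knockout 1 only (0.0545 to 0.106 without any other single library). The small subunits Sf3b4 and Sf3b6 differed by 0.49 ± 0.17 and 0.67 ± 0.24, just short of the threshold (limma adjusted p = 0.0512 and 0.0628), and both passed in the block of adjacent animals. The large subunits did not pass: Sf3b1, which holds the branch point, differed by 0.18 ± 0.17, Sf3b2 by 0.02 ± 0.16 and Sf3b3 by −0.23 ± 0.19.

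The 13 PRPF genes, named after yeast pre-mRNA processing mutants and encoding mainly tri-snRNP and catalytic-core proteins, gave no call in either direction in limma, with 1 gene at an unadjusted p under 0.05. Their log2 differences ran from −0.94 to 0.37 with a median of −0.15. Prpf8, the core U5 protein that holds the catalytic centre, had 2553, 1560 and 1515 normalized counts in knockout 1 to 3, against 1953, 1924 and 1540 in control 1 to 3. Its log2 difference was 0.02 ± 0.23 (limma adjusted p = 0.955), and knockout 1 was highest of all 6 libraries. The gene at an unadjusted p under 0.05 was Prpf40b, a U1-associated protein, with 37.4, 20.4 and 52.1 normalized counts in knockout 1 to 3, against 62.7, 61.1 and 76.8 in control 1 to 3. Its difference of −0.94 ± 0.37 did not pass (limma adjusted p = 0.0813), but did in the block of adjacent animals (0.037) and without knockout 3. On equal totals Prpf4b, a splicing kinase at −0.36 ± 0.17 on the deposited scale (limma adjusted p = 0.13), was called lower.

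The polypyrimidine-tract binding genes gave no call either, again with 1 gene at an unadjusted limma p under 0.05. That gene was Ptbp3, with 6447, 9138 and 7163 normalized counts in knockout 1 to 3, against 4969, 5827 and 5081 in control 1 to 3. Every library labelled knockout lay above every control, yet the difference of 0.51 ± 0.19 missed the threshold (limma adjusted p = 0.0697). It passed in the block of adjacent animals (0.0239) and, by a small margin, without knockout 1 (0.0498). Ptbp1, the general repressor of exons in non-neural cells, differed by −0.15 ± 0.18, and Ptbp2, its neural counterpart, by −0.16 ± 0.28 (limma adjusted p = 0.54 and 0.68).

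Of the 33 numbered RBM genes, which share RNA-binding domains but act in different steps, 5 rose and 3 fell, with a median of −0.04. Over all tested genes, 17.7% were higher and 15.9% lower. Rbm28, a nucleolar protein whose yeast relative acts in ribosome assembly, had 233, 191 and 207 normalized counts in knockout 1 to 3, against 93.6, 104.5 and 105 in control 1 to 3. It rose by 1.05 ± 0.20 log2 units (limma adjusted p = 0.00517), and on equal totals the call missed narrowly (0.0549). Rbm19, another nucleolar protein, whose yeast relative takes part in ribosomal RNA processing, had 159, 184 and 117 normalized counts in knockout 1 to 3, against 80.2, 70.1 and 91.8 in control 1 to 3. It rose by 0.90 ± 0.25 (limma adjusted p = 0.0237), a call lost without knockout 1 or 2 or control 1 or 2 (0.059, 0.0652, 0.0699 and 0.0874).

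Rbm42 had 599, 830 and 582 normalized counts in knockout 1 to 3, against 272, 367 and 323 in control 1 to 3, a rise of 1.05 ± 0.21 log2 units (limma adjusted p = 0.00688). Of its transcript sequence 73.6% is shared with a readthrough transcript, Gm21982, on the same strand. Rbm22, which contacts the catalytic RNA of the spliceosome, had 322, 442 and 314 normalized counts in knockout 1 to 3, against 205, 203 and 217.4 in control 1 to 3. It rose by 0.77 ± 0.20 (limma adjusted p = 0.0199), a call lost without control 1, 2 or 3 (0.0661, 0.0699 and 0.0555). Rbm4, a regulator of alternative exons, had 298, 305.5 and 312.5 normalized counts in knockout 1 to 3, against 215, 204 and 189 in control 1 to 3, very even within each group. It rose by 0.59 ± 0.17 (limma adjusted p = 0.03), but the call was lost without any single library (0.0529 to 0.107), and 57.5% of its sequence is shared, mainly with the readthrough gene Gm21992.

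The RBM genes that fell were 3. Rbm10, an X-linked regulator that favours exon skipping, had 54.3, 28.1 and 42.0 normalized counts in knockout 1 to 3, against 109, 69.6 and 106 in control 1 to 3. Its log2 difference was −1.19 ± 0.33 (limma adjusted p = 0.0244), against −0.76 with knockout 1 alone (0.179), and the call was lost without knockout 2, control 1 or control 3 (0.0571, 0.09 and 0.0879). Rbm12 had 191.5, 137 and 170 normalized counts in knockout 1 to 3, against 322, 326 and 234 in control 1 to 3, and fell by 0.82 ± 0.22 (limma adjusted p = 0.024). That call was lost without knockout 2, control 1 or control 2 (0.0602, 0.0882 and 0.0926). Both genes share sequence with others, 41.0% for Rbm10, mainly with a pseudogene, and 33.1% for Rbm12, mainly with a readthrough gene. The readthrough genes that share sequence with U2af1l4, Rbm4 and Rbm12 have counts of their own in the table, which differed by 0.06, 0.46 and 0.16 and did not pass (limma adjusted p = 0.915, 0.252 and 0.541).

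Rbm20, known for titin splicing in muscle, was the lowest member per kilobase of exon, with 9.35, 5.10 and 13.3 normalized counts in knockout 1 to 3, against 31.0, 19.5 and 42.5 in control 1 to 3. It fell by 1.66 ± 0.52 log2 units (limma adjusted p = 0.0402). The call held without knockout 3 and not without any other single library (0.0622 to 0.162). In knockout 2, the shallowest library, one step between low values was 1.70 normalized counts, so its value rests on few reads. The abundant RBM genes did not pass: Rbm39 differed by −0.22 ± 0.22, Rbm3, a cold-induced protein, by 0.25 ± 0.18 and Rbm33 by −0.13 ± 0.18.

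Of the 21 called members, 7 stayed past the threshold without each of the 6 libraries in turn. These were Hnrnpa3, Rbm28, Rbm42, Snrpa1 and Snrpd2 among the higher and Hnrnpd and Hnrnph1 among the lower. Of the remaining 14, 8 held in at most 1 of these 6 fits. In the same 6 fits, 20.5 to 34.8% of all tested genes passed, and 6.6 to 17.9% of the members. How many of all called genes stayed past the threshold in all 6 was not counted. With knockout 1 alone, 3 higher (Hnrnpa3, Rbm28 and Rbm42) and 2 lower (Hnrnph1 and Hnrnpd) members passed.

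The 250 bases before the transcription start are shown for 4 of these stable members, 3 higher and 1 lower. Snrpa1 and Snrpd2 had a window of the same length and are not shown, so the 4 do not stand for all stable members. The sequences are from RefSeq (GRCm38.p6), 5′ to 3′ on the gene's strand. The search covered 7 motifs on both strands, namely the E-box CACGTG, the ETS motif CCGGAAG, the box CCAAT, the GC box GGGCGG, the ATF4 composite motif TGATGNAA, the TATA box TATAAA and the cAMP response motif TGACGT. Capitals mark their matches. Hnrnpa3 is at chr2:75659009-75659258 (plus strand), Rbm28 at chr6:29164725-29164974 (minus), Rbm42 at chr7:30650229-30650478 (minus) and Hnrnpd at chr5:99978939-99979188 (minus).
Hnrnpa3: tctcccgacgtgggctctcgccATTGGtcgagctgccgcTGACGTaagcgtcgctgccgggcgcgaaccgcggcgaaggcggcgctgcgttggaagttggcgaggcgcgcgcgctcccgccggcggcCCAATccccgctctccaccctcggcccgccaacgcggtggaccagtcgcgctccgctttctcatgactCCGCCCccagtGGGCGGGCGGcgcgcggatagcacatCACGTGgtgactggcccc
Rbm28: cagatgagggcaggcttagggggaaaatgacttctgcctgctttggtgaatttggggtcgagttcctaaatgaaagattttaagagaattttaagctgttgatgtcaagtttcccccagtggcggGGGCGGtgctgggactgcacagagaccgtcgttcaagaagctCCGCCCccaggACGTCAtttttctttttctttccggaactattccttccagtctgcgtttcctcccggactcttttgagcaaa
Rbm42: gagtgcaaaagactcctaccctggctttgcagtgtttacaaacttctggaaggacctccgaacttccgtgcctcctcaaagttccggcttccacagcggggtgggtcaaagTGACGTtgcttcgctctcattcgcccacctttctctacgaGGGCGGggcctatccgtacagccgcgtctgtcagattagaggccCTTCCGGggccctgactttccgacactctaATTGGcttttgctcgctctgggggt
Hnrnpd: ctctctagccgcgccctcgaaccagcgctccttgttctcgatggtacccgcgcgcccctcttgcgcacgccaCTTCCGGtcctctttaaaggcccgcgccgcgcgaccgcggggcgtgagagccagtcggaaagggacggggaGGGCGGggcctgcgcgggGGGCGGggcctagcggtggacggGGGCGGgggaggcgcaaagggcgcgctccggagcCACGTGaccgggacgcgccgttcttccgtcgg
The cAMP response motif TGACGT stands once in each of the 3 windows of higher members shown and not in that of Hnrnpd. The other stable members do not follow this split. Snrpa1 and Snrpd2, which were higher, had no match, and Hnrnph1, which was lower, had a match in 1 of its 5 windows. Among all members it was in 6 of 12 windows of higher members (10 genes), 2 of 11 of lower members (18.2%, 7 genes) and 13 of 91 of members not past the threshold (14.3%). The share over all 32851 promoters of this length was 6.47%. It was singled out of 7 motifs after these shares were seen, and no test was made. Over all 114 member windows (88 genes), GGGCGG was in 54.4% and CCGGAAG in 23.7%, against 32.7 and 6.91% of all promoters. TGATGNAA was in 3.51% of all member windows and in 3.45% of all promoters. None of the 12 windows of higher and 11 of lower members had it, too few windows to tell an absence at this share. A match is a description of letters and not a binding site, and 18 members had no window in the table.

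The members lie on 20 chromosomes. Of the 10 on chromosome 7, 5 were higher (Snrpd2, Rbm42, Snrpa1, U2af1l4 and Snrpa) and 0 lower, while 20.7% of all 972 tested genes on that chromosome were higher and 13.7% lower. Of the 6 on chromosome 11, none was higher and 3 were lower (Hnrnph1, Sf3a1 and Srsf2), against 17.0 and 18.1% of the 1001 tested genes there. Both chromosomes were singled out after their counts were seen.

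Other genes of the splicing pathway, from a list of 147 of which 135 were in the table, gave 19 higher and 9 lower, with a median of 0.06 on the log2 scale. With adjacent animals as a block, the lower count was 14, and on equal totals the counts were 9 higher and 27 lower. Of all tested genes, 17.7% were higher and 15.9% lower on the deposited scale, which is also the background for the count of each list below. The shares of all tested genes were 22.9 and 22.0% in the block, and 11.2 and 23.8% on equal totals. The median and the share of calls of these other genes lay close to those of the members, but large differences were more frequent. A log2 size of 1 or more was reached by 14.1% of them, against 7.55% of the members and 31.1% of all tested genes. Among tri-snRNP and other Snrnp genes 3 of 14 rose and none fell. Txnl4a, a small U5 protein, had 332, 242.2 and 243 normalized counts in knockout 1 to 3, against 118, 98.3 and 96.1 in control 1 to 3, a rise of 1.37 ± 0.22 (limma adjusted p = 0.00249). Snrnp70, the U1-70K protein, had 1785, 1851 and 1131 normalized counts in knockout 1 to 3, against 609, 699.5 and 745.5 in control 1 to 3, a rise of 1.18 ± 0.22 (limma adjusted p = 0.0054). Of the 3 genes for U1-specific proteins, Snrnp70 and Snrpa thus rose, and Snrpc did not pass.

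Of 26 genes of the Prp19 complex and the catalytic steps, 5 rose and 1 fell. Bud31, a core protein of the activated spliceosome, had 302, 543 and 344 normalized counts in knockout 1 to 3, against 135, 116 and 110.5 in control 1 to 3. It rose by 1.67 ± 0.25 log2 units (limma adjusted p = 0.00215). Ppil1, a prolyl isomerase of the same stage, fell by 1.14 ± 0.29 (limma adjusted p = 0.0195), a call lost without knockout 1, control 1 or control 3 (0.0504, 0.0655 and 0.0805). Of 9 branch point and 3′ splice site factors only Phf5a passed. This SF3b subunit had 218, 272 and 239.5 normalized counts in knockout 1 to 3, against 97.4, 143 and 141 in control 1 to 3, a rise of 0.95 ± 0.22 (limma adjusted p = 0.0142), lost without control 1 (0.0538).

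Of 8 kinases that phosphorylate SR proteins, Clk3 rose and Dyrk1b fell. Clk3 had 793.5, 1247 and 794 normalized counts in knockout 1 to 3, against 386, 425 and 423 in control 1 to 3, a log2 difference of 1.17 ± 0.21 (limma adjusted p = 0.00498). Dyrk1b had 149.5, 104 and 71.0 normalized counts in knockout 1 to 3, against 263.5, 229 and 252 in control 1 to 3, a log2 difference of −1.25 ± 0.28 (limma adjusted p = 0.0109). Of 30 other hnRNP-type proteins and regulators 5 rose and 4 fell. Pcbp4, a binder of C-rich RNA, rose by 1.75 ± 0.29 (limma adjusted p = 0.00319). Rbmx, the X-linked hnRNP G, fell by 1.11 ± 0.27 (limma adjusted p = 0.0145), a call lost without control 1 (0.0628).

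The epithelial splicing regulator Esrp1, which favours epithelial isoforms, was among the 9 that fell and is named after its values were seen. It had 2613, 2763 and 2886 normalized counts in knockout 1 to 3, against 3722, 3989 and 4323 in control 1 to 3, a log2 difference of −0.54 ± 0.16 (limma adjusted p = 0.0297). All libraries labelled knockout lay below the controls. The call held without knockout 2 or 3 and was lost without knockout 1 or control 1, 2 or 3 (0.0611, 0.0685, 0.101 and 0.119). Of 8 minor spliceosome genes 2 rose and 0 fell, Zrsr2 by 0.88 ± 0.21 and Scnm1 by 1.06 ± 0.28 (limma adjusted p = 0.0139 and 0.0211). Zrsr2, which recognises the end of minor introns, lost its call without control 1 or 3 (0.0513 and 0.057), and Scnm1 without knockout 2 or 3 or control 1 or 3 (0.0557, 0.0513, 0.0756 and 0.0626). Both calls, and that of Phf5a, were also lost on equal totals (0.109, 0.0825 and 0.062). Of 14 genes of SMN and snRNP assembly only Coil, the marker protein of Cajal bodies, passed. It had 13.1, 5.10 and 8.87 normalized counts in knockout 1 to 3, against 32.5, 27.5 and 40.9 in control 1 to 3, a log2 difference of −1.85 ± 0.48 (limma adjusted p = 0.0196), a call lost without control 1, 2 or 3 (0.0665, 0.0579 and 0.09). The LSm ring and the genes of the exon junction complex and mRNA export gave 1 higher and 1 lower each, of 6 and 20.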

How the data were processed

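The members and gene lists were chosen with earlier results of these data known. Bulk RNA sequencing of 6 libraries, 3 labelled Hnrnpu knockout and 3 controls, was deposited by the authors as normalized counts per gene, which are signal values of 0 or more. The submitters' processing notes name the build mm39 with TopHat2 2.1.0 and Partek 9.0.20.0202. How counts were made and scaled is not given in the sources used here. Between 81.9 and 84.0% of low values were whole multiples of a step within 0.02 of it, so reads could not be restored in full and count tests were left out. P-values measure the spread between animals, as separate numbers in the titles are read here.

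Symbols were matched for 12771 IDs and 123 had none. Lengths, chromosomes and overlaps came from GENCODE M21 (GRCm38), another build. Values were tested as log2(value + 1), for genes above 1 in at least 3 libraries (12872), with limma 3.58.1 in R 4.3.3 (lmFit, eBayes with trend) and Benjamini-Hochberg adjustment over all tested genes at 0.05. Fold changes on this scale understate low genes. The fit was also run on simulated data with independent libraries of equal scale, so that run does not bear on scaling or on paired animals. Shared sequence is the share of a gene's 50-base stretches found in another gene's transcripts.

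Animal numbers are adjacent across groups. Within these pairs the deviations from the group means had correlations of 0.37, 0.23 and 0.36, so the pairs were fitted as a block as an alternative. Between other libraries of opposite groups the correlations were −0.28 to −0.07. Deviations cancel within each group, so positive values in pairs bring negative ones elsewhere, and this range is no separate sign of pairing. Other alternatives were the pseudocount, filter, scaling, trend, robust and weighted fits, each library left out, and knockout 1 alone.

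Values per library were to be given for Hnrnpu, Hnrnpul1, Hnrnpul2, the 8 largest rises and falls, up to 3 members per family by adjusted p and its highest member, and up to 3 other genes per list. Hnrnph2, Rbm4, Snrpf and Esrp1 are given beyond this rule, after their values were seen. Prpf40b did not pass and is given as the PRPF member with the smallest adjusted p.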

Additional observations from a re-analysis of the deposited data

How the results depend on the processing

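The counts of calls moved most with scaling and with single libraries. On equal library totals, 1442 of all tested genes were higher (2279 on the deposited scale), 3 members were higher and 18 lower (12 and 9), against 11.2% higher and 23.8% lower of all tested genes, and 9 other splicing genes were higher and 27 lower (19 and 9). There the members' median was −0.339, and with quantile normalization it was −0.122, against −0.0004 on the deposited scale, with a spread of 0.09 between libraries (SD). With knockout 1 alone, 1305 of all tested genes were higher, 3 members were higher and 2 lower, and 7 other splicing genes were higher and 4 lower. With animals of adjacent number as a replicate block, 16 members were higher and 12 lower, with all 21 calls kept, or 26.4% of the members against 44.9% of all tested genes, and 14 other splicing genes were lower. Leaving out 1 library gave 1515 to 2300 higher and 1107 to 2164 lower among all tested genes, 5 to 11 higher and 2 to 9 lower members, and 9 to 19 higher and 1 to 9 lower other splicing genes. Of these fits that leave out 1 library, the one without control 1 gave the fewest member calls, 5 higher and 2 lower. Hnrnpl, at 0.02 on the deposited scale, was −0.41 with quantile normalization (limma adjusted p = 0.0443). It is the only reversal counted next and was uncalled on the deposited scale, so no called difference of a named gene changed sign. Of the values of single named genes, 659 stayed on the same side of the threshold, uncalled differences that changed sign included, 136 were no longer past it, 3 passed newly and 1 reversed. The cause of these changes was not tested. With 3 libraries per group and a limited depth, low members such as Rbm20 and Snrpf rest on few reads.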
